A study of Caenorhabditis elegans with 59 samples.

Results

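The comparison described here is that of mRNA in Caenorhabditis elegans lines lacking the mutator helicases MUT-14 and SMUT-1 with mRNA in wild-type lines, both after 50 generations of separate upkeep. Its members were chosen by the label of each column in the generation 50 mRNA table, and they are 6 of the 59 libraries of the series, 3 lines of mut-14 smut-1 and 3 lines of wild type. The mut-14 smut-1 animals (strain GR1948) carried the alleles mg464 of mut-14 and tm1301 of smut-1, both on chromosome V, and also the allele ed3 of unc-119 on chromosome III. The wild type was N2. Values of 2 further genotypes of the same table are set beside these where they help to place a gene, namely 3 lines of the prg-1 mut-14 smut-1 triple mutant (strain GR2070, prg-1 allele n4357 on chromosome I with the mg464 and tm1301 alleles, and no unc-119 allele in its label) and 3 lines of prg-1 (strain SX922, allele n4357). The series asks how piRNAs and the mutator pathway shape inherited gene silencing. Whole gravid adults were used, kept at 20 °C with E. coli OP50 as food, and RNA longer than 200 nt was sequenced after removal of rRNA. The age in hours is given for the generation 1 animals (72 h) and not for those of generation 50, and the labels name a pair of library kits without saying which library was made with which.

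In C. elegans germ cells, short RNAs antisense to a transcript, called 22G-RNAs, are made by RNA-dependent RNA polymerases and loaded into Argonaute proteins that silence the matching gene. Much of this amplification takes place in perinuclear mutator foci, where the related DEAD-box helicases MUT-14 and SMUT-1 act redundantly, so that animals lose the mutator-dependent 22G-RNAs when both are missing. PRG-1, the Piwi protein of the worm, binds piRNAs and directs this amplification to many germline transcripts, and a separate set of 22G-RNAs bound by CSR-1 marks genes that are expressed in the germline.

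The deposited mRNA values were normalized by the authors and are on a scale close to read counts. The 3 mut-14 smut-1 lines had depths of about 26.3, 15.5 and 63.8, in units of 1e+06 reads assigned to genes, and the 3 wild-type lines of about 21.1, 23.8 and 27.9. Lines of 1 genotype resembled each other less than replicates of generation 1 did: Pearson's r across genes was 0.919 to 0.967 among mut-14 smut-1 lines and 0.935 to 0.974 among wild-type lines at generation 50, against 0.989 to 0.992 and 0.989 at generation 1. On the first principal component of the 12 generation 50 libraries (44.7% of the variance), the wild-type lines lay at -51.7, -158.6 and -122.7, and all 9 mutant lines lay between 11.2 and 50.7. Wild-type line 1 was thus the closest of its group to the mutants, and on the second component (17.8%) mut-14 smut-1 line 2 stood alone at -133.5.

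The mutated genes matched the labels. Transcript of mut-14 (C14C11.6) had normalized values of 86.0, 103 and 64.6 in mut-14 smut-1 lines and 2097, 2078 and 2033 in wild-type lines. The log2 difference was -4.62 ± 0.18 (SE; limma, adjusted p = 8.6e-08). For smut-1 the values were 372, 408 and 479 in mut-14 smut-1 lines, against 2173, 2422 and 2133 in wild type (-2.42 ± 0.16). Transcript of unc-119, a neuronal gene commonly used as a transgene marker, stood at 26.4, 20.7 and 30.0 in mut-14 smut-1 lines, at 117, 122 and 94.9 in the triple mutant and at 163, 176 and 150 in wild type. The groups did not overlap for any of these 3 genes, so that the contrast with wild type also includes the unc-119 allele. Transcript of prg-1 had 10001, 11211 and 9875 in mut-14 smut-1 lines and 9645, 10267 and 10665 in wild-type lines, and it did not pass the test (0.02 ± 0.11, limma adjusted p = 0.89).

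Of 16328 genes and transposons tested, 2695 were called higher in mut-14 smut-1 than in wild type and 1843 lower (limma, Benjamini-Hochberg adjusted p under 0.05). These are 16.5% and 11.3% of everything tested, and the counts of each gene list below are to be read against those shares. At least a 2-fold change was fitted for 2072 of the genes called higher (12.7% of all tested) and for 837 of those called lower (5.13%). Groups did not overlap for 41.0% of all genes tested, so that a lack of overlap between 3 and 3 lines is common here. The median log2 difference over all genes was 0.008. When libraries were rescaled to equal totals, 2841 genes were called higher and 1250 lower, which raised the higher share of all calls to 69.4%, against 59.4% with the deposited scaling. With the spread estimated from mut-14 smut-1 and wild type alone, 1272 were called higher and 628 lower. Among fits that left out 1 line, the lower calls dropped most without a wild-type line: 978 were left without line 1, 1103 without line 2 and 768 without line 3, and without wild-type line 3 the higher calls came to 1646.

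**Figure D1:**
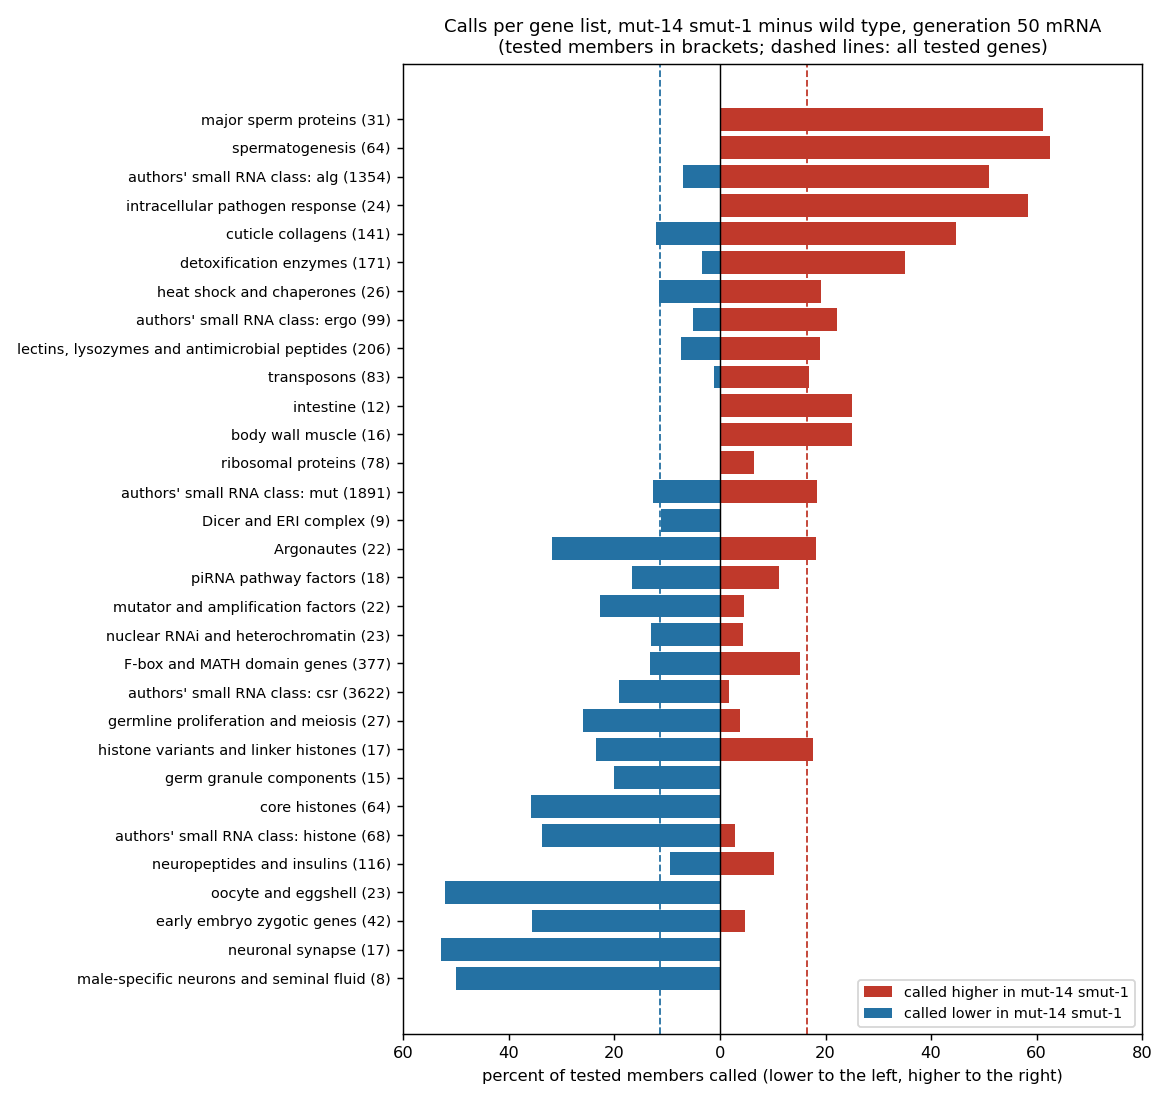
Bars give the percent of tested members of each gene list called higher (red, to the right) or lower (blue, to the left) in mut-14 smut-1 lines than in wild-type lines at generation 50, 3 lines each, and dashed lines give the same shares over all 16328 genes tested. The 2 sperm lists have 61.3% and 62.5% called higher, and oocyte and synaptic genes near the bottom have 52.2% and 52.9% called lower.

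Sperm transcripts were called in 1 direction. Of 64 tested genes of spermatogenesis, 40 rose in mut-14 smut-1 lines and 0 fell (by limma; 51 and 0 at an unadjusted p under 0.05), with a median log2 difference of 2.84 over the list. Of 31 tested genes for major sperm proteins, the cytoskeletal proteins that drive the crawling of nematode sperm, 19 rose and 0 fell (28 and 0 unadjusted; median 4.15). The major sperm protein genes are near-identical copies whose reads could be split between them, so their sum was also taken. It was 18493, 6399 and 18362 in mut-14 smut-1 lines, against 8510, 45.2 and 805 in wild-type lines. Wild-type line 1 lay above mut-14 smut-1 line 2, so the groups overlapped, and the wild-type lines themselves spanned a wide range. Fitted as 1 feature in the table, the sum differed by 4.25 ± 1.34 (log2; limma, adjusted p = 0.035).

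These counts lean on single lines. Without wild-type line 1, 29 of the 31 major sperm protein genes were called higher and the sum differed by 6.07 ± 0.94. The genes called numbered 1 without wild-type line 3, 6 without wild-type line 2, 2 without mut-14 smut-1 line 1 and 6 without mut-14 smut-1 line 3, and with the summed feature the adjusted p of limma was then 0.083, 0.076, 0.091 and 0.069. For the wider spermatogenesis list, the number called higher ran from 21 without wild-type line 3 to 49 without wild-type line 1. Where the spread was estimated from mut-14 smut-1 and wild type alone, 14 of 58 tested genes of the spermatogenesis list were called higher by limma and 0 of 28 major sperm protein genes, of which 18 were higher at an unadjusted p under 0.05.

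The genes named next were picked from those called higher, so their direction is no separate result. Transcript of spe-41, a calcium channel of sperm needed for fertilization, had 510, 414 and 562 in mut-14 smut-1 lines and 124, 63.3 and 89.6 in wild-type lines. Every mutant line lay above every wild-type line, by 2.45 ± 0.26 (log2; limma, adjusted p = 0.00025). For spe-8, a tyrosine kinase of sperm activation, the values were 65.3, 41.7 and 69.8 in mut-14 smut-1 lines and 8.41, 0 and 2.26 in wild type (4.22 ± 0.66, limma adjusted p = 0.0018). The Argonautes ALG-3 and ALG-4 act in sperm development. Transcript of alg-4 had 280, 245 and 557 in mut-14 smut-1 lines and 163, 5.53 and 17.3 in wild type (3.65 ± 0.89, limma adjusted p = 0.013), and alg-3 had 273, 196 and 553 against 136, 2.32 and 19.3 (3.89 ± 0.99, limma adjusted p = 0.015). In both, wild-type line 1 was far above the other wild-type lines, and the alg-4 call was lost without wild-type line 3.

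The authors' small RNA table assigns 1400 genes to a class it calls alg. Of the 1354 tested here, 691 (51.0%) rose in mut-14 smut-1 lines and 96 (7.1%) fell, with a median log2 difference of 2.11. The median was smaller where low values weighed less, 1.17 with a pseudocount of 10 and 0.14 over the 772 genes left by a minimum of 100, of which 261 were called higher and 97 lower. They made up 25.6% of all genes called higher and 8.3% of all genes tested. The number called higher was 400 without wild-type line 3 (35 lower) and 751 without wild-type line 1 (43 lower). Where the spread came from the 2 genotypes alone, 243 were called higher and 20 lower.

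Male tissue markers were not called higher. Of 8 tested genes for male-specific neurons and seminal fluid, 0 rose and 4 fell, among them cwp-4, coexpressed with polycystins in male sensory neurons, with 13.1, 7.24 and 21.5 in mut-14 smut-1 lines, against 43.5, 48.6 and 28.3 in wild-type lines (-1.54 ± 0.43, limma adjusted p = 0.021), a call lost without wild-type line 1 or 2. The lower calls on the list came to 0 without wild-type line 2, 1 without wild-type line 1 or 3 or mut-14 smut-1 line 2, and 0 with the spread from the 2 genotypes alone, all by limma. Summed over 14 listed genes, these markers came to 123, 102 and 155 in mut-14 smut-1 lines and to 233, 151 and 147 in wild type, low in every line, and the groups overlapped. The seminal fluid protease gene try-5 had 27.2, 18.1 and 40.1 in mut-14 smut-1 lines and 28.0, 13.9 and 14.7 in wild type, which did not pass the test. In whole animals, more cells of a type and more RNA per cell cannot be told apart.

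Oocyte transcripts were lower. Of 23 genes for oocyte and eggshell proteins, 0 rose and 12 fell (0 and 17 at an unadjusted p under 0.05 in limma; median -0.55). The count was 7 without wild-type line 3 and also 7 with the spread from the 2 genotypes alone. Transcript of rme-2, the yolk receptor of the oocyte, had 17816, 15021 and 19102 in mut-14 smut-1 lines and 32715, 34407 and 38471 in wild-type lines. The groups were well apart, with a difference of -1.03 ± 0.14 (log2; limma, adjusted p = 0.0011). Transcript of puf-5, which encodes a repressor of translation in oocytes, had 11634, 9369 and 13516 against 22316, 22148 and 22941 (-0.98 ± 0.14). Those of mex-6 and oma-1, regulators at the oocyte-to-embryo transition, fell by 0.83 and 0.84 on the log2 scale. The summed oocyte list was 248082, 313919 and 247962 in mut-14 smut-1 lines and 353996, 356093 and 411804 in wild type, without overlap.

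Early embryonic genes were called lower by single gene, while their sums overlapped. Of 42 tested genes transcribed first in the early embryo, 15 fell and 2 rose (median -0.75), with 5 lower without wild-type line 3, 6 without line 2, 8 with equal library totals and 4 with the spread from the 2 genotypes alone. Their sum was 5162, 7120 and 3226 in mut-14 smut-1 lines and 5890, 5940 and 5620 in wild-type lines, where mutant line 2 lay above and the others below all wild-type lines. Transcript of pes-10, one of the earliest zygotic genes, had 127, 138 and 141 in mut-14 smut-1 lines and 405, 382 and 407 in wild type (-1.55 ± 0.17, limma adjusted p = 0.00026). Of 27 genes of germline proliferation and meiosis, 7 fell and 1 rose (median -0.18; 3 lower without wild-type line 3, 4 without wild-type line 1 or mut-14 smut-1 line 1), among them the synaptonemal complex gene syp-2 with -0.84 ± 0.17, while syp-1 rose by 0.69 ± 0.18 and lost its call without wild-type line 2 or 3. The 6 vitellogenin genes, which encode yolk proteins, had a median of -1.02, and none passed the limma test at generation 50, with 1 lower at an unadjusted p under 0.05. Line 2 of mut-14 smut-1 had the highest vitellogenin sum of its group, 1211166, against 552252 and 914260 in its other lines, and wild-type lines had 1344986, 972140 and 1720928.

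**Figure D2:**
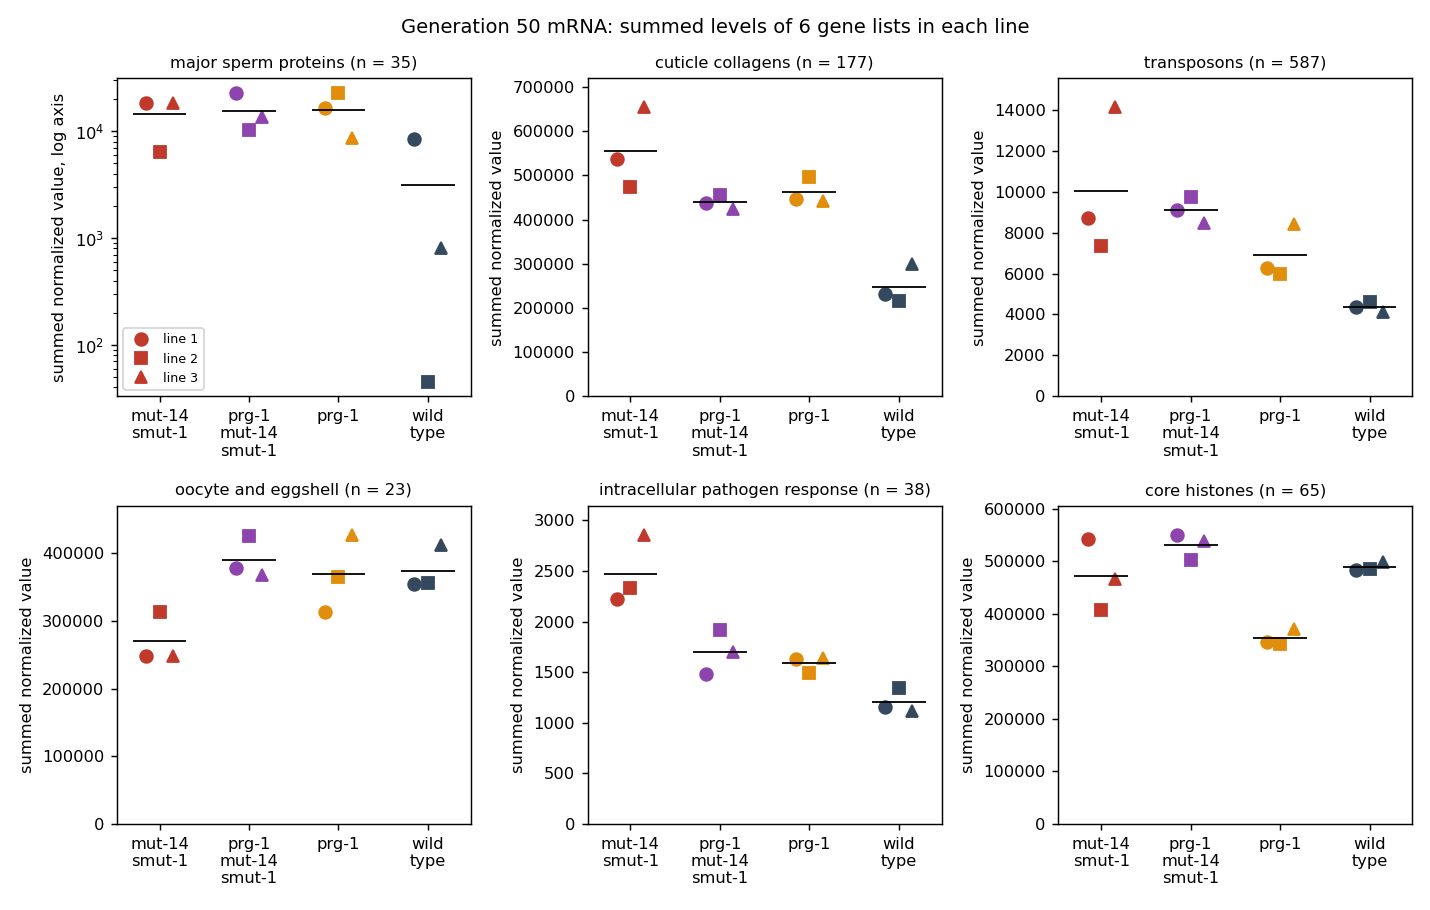
Each panel plots the summed normalized mRNA value of 1 gene list in each generation 50 line (circle, square and triangle for lines 1 to 3) of mut-14 smut-1, the triple mutant, prg-1 and wild type, with a bar at the mean of 3 lines. Collagen, transposon and intracellular pathogen response sums of mut-14 smut-1 lie above all wild-type lines and the oocyte sum below them, while major sperm protein sums (log axis) spread from 45.2 to 8510 among wild-type lines.

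The small RNA table of the same generation and lines gives the state of the pathway in these animals. The class the authors call mut took 1.40%, 1.42% and 1.37% of listed small RNA in mut-14 smut-1 lines, against 38.8%, 39.7% and 40.1% in wild-type lines. Of 2240 genes of the class tested for small RNA, 2201 were called lower (98.3%, against 26.0% of all small RNA features and 44.6% of those other than piRNAs and miRNAs) and 2 higher. The class called alg took 0.0914%, 0.0747% and 0.0937% of listed small RNA in mut-14 smut-1 lines, against 0.0207%, 0.0029% and 0.0040% in wild type. Of its 1400 genes, 215 passed the small RNA filter, which favours genes high in some libraries, and no share of calls is read from them. The direction of smaller changes in this table depends on how libraries are scaled, since miRNA took 72.6% to 81.7% of listed small RNA in mut-14 smut-1 lines and 38.5% to 40.4% in wild type. With libraries scaled to equal miRNA totals, 1006 features were called higher and 5399 lower, against 5789 and 2848 with the deposited scaling (52.8% and 26.0% of 10968 features). Among features other than piRNAs and miRNAs, 33.6% were called higher.

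For most genes of the mut class, mRNA was not called changed. Among 1891 genes of that class tested for mRNA, 348 (18.4%) were called higher and 240 (12.7%) lower, with a median log2 difference of -0.002. These shares are close to the 16.5% and 11.3% of all genes, and the counts are therefore no result about the class. Taking the 1836 genes of the class with small RNA called lower gave 337 (18.4%) with higher mRNA and 234 (12.7%) with lower mRNA. In the class called csr, more genes fell than rose, with 696 of 3622 lower (19.2%), 67 higher (1.8%) and a median of -0.14. The csr count was 281 lower without wild-type line 3, 464 without line 2, 369 without line 1, 436 with equal library totals and 205 where the spread came from the 2 genotypes alone. Higher csr calls also moved, to 340 without mut-14 smut-1 line 3 (781 lower) and to 101 with equal library totals. They came to 9 with the spread from the 2 genotypes alone. Of 99 genes of the class called ergo, 22 (22.2%) rose and 5 fell.

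**Figure D3:**
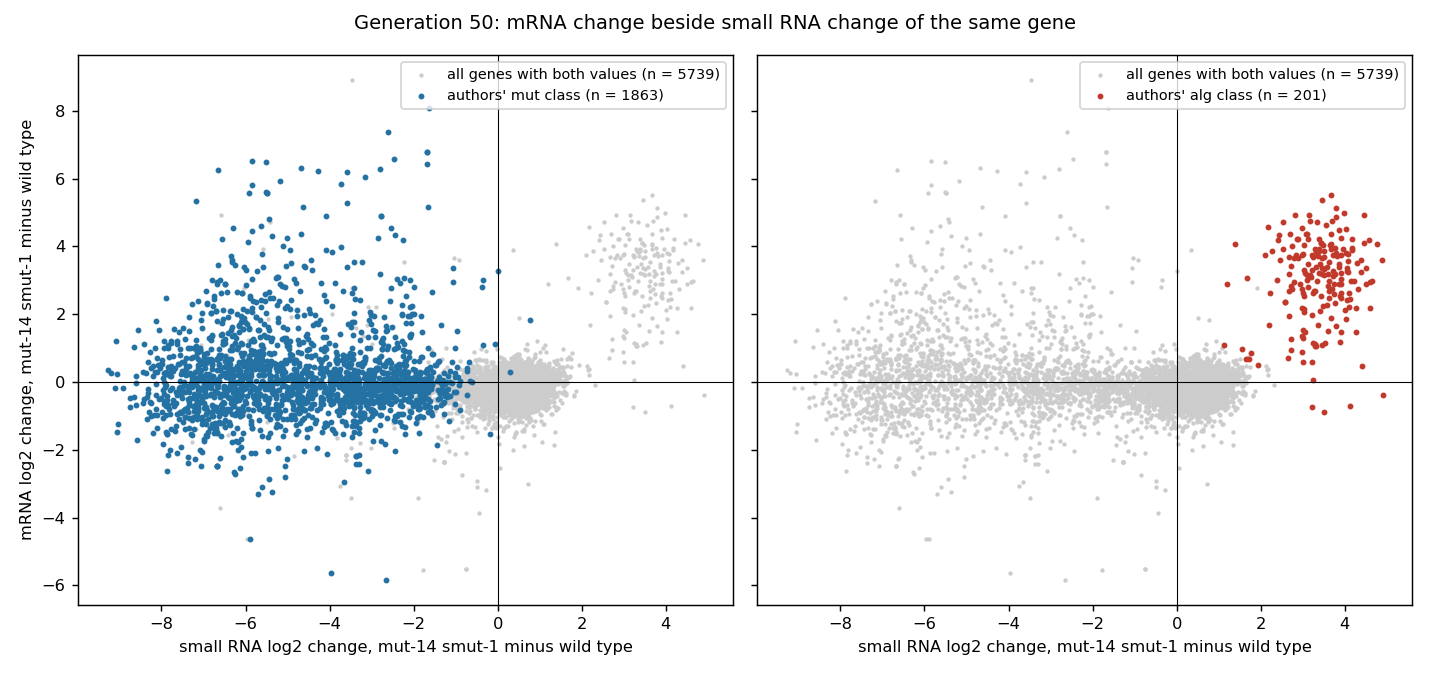
Each point is 1 of 5739 genes with both values at generation 50, with the small RNA log2 difference (mut-14 smut-1 minus wild type) on the horizontal axis and the mRNA log2 difference on the vertical axis. The 1863 genes of the authors' mut class (blue, left) spread far to the left with mRNA centred near 0, and the 201 genes of the alg class that passed the small RNA filter (red, right), which favours genes high in some libraries, lie up and to the right.

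Genes of the mut class were among the largest increases. C38D9.2 had 4960, 10847 and 4688 in mut-14 smut-1 lines and 18.2, 26.6 and 22.6 in wild-type lines, a log2 difference of 8.09 ± 0.35 (limma, adjusted p = 1.2e-07). Line 2 was the highest, and all 3 mutant lines lay far above wild type. In the triple mutant the gene had 6767, 6103 and 6126, and in prg-1 70.9, 92.4 and 175. Small RNA of C38D9.2 had normalized values of 1165, 1221 and 888 in mut-14 smut-1 lines, against 3367, 3486 and 3234 in wild type, so that much of it was still listed (-1.64). In prg-1 lines its small RNA was at 20127, 14744 and 19203, above both. ZC15.3 followed the same order, with mRNA of 1248, 1462 and 1144 in mut-14 smut-1 lines, 18.5, 24.1 and 36.9 in prg-1 and 4.20, 6.95 and 10.2 in wild type (7.37 ± 0.34).

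Genes that were raised in all 3 mutant genotypes included bath-45 and fbxb-97, which have been used as readouts of piRNA silencing. Transcript of bath-45 had 752, 619 and 985 in mut-14 smut-1 lines and 84.1, 77.6 and 59.96 in wild-type lines, a difference of 3.38 ± 0.21 (limma, adjusted p = 3.7e-06). The bath-45 level was higher still in prg-1, at 2002, 1813 and 2791, and the direct difference of mut-14 smut-1 from prg-1 was -1.49 (limma, adjusted p = 0.0036). Its small RNA fell to 393, 405 and 376 in mut-14 smut-1 lines, against 24059, 27551 and 25990 in wild type. For fbxb-97 the mRNA values were 710, 599 and 610 in mut-14 smut-1 lines, 609, 641 and 921 in prg-1 and 54.7, 53.3 and 46.4 in wild type (3.61 ± 0.17 against wild type). Transcript of xol-1, the switch gene of sex determination and a known piRNA target, had 45.2, 81.4 and 103 in mut-14 smut-1 lines and 67.5, 64.6 and 82.0 in wild type, and did not pass the test (limma adjusted p = 0.96).

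Among mut class genes, timm-17B.2, which encodes a predicted subunit of the mitochondrial import machinery, had the smallest p. It had 5584, 5706 and 4754 in mut-14 smut-1 lines, 6518, 9003 and 7435 in prg-1 and 123, 132 and 157 in wild type, which is 5.27 ± 0.15 above wild type (limma, adjusted p = 6.9e-09). Other genes were high where mut-14 and smut-1 were missing and far lower in prg-1. F07B7.1 had 847, 924 and 1143 in mut-14 smut-1 lines, 1191, 1552 and 970 in the triple mutant, 15.4, 14.1 and 19.0 in prg-1 and 16.8, 20.8 and 20.4 in wild type, with a direct difference from prg-1 of 5.82 (limma, adjusted p = 9.4e-08). W09B7.1 was listed with the same values in every library, so that reads of these 2 genes cannot be told apart, and F07B7.2 and W09B7.2 form another such pair (4.89 ± 0.33 above wild type). The F-box gene fbxb-14 had 286, 181 and 360 in mut-14 smut-1 lines, 29.3, 28.1 and 41.7 in prg-1 and 9.81, 23.2 and 5.66 in wild type, with every prg-1 line above every wild-type line.

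Loss of small RNA also went with lower mRNA in single genes. K08E5.1 had 74.8, 59.8 and 66.3 in mut-14 smut-1 lines and 310, 512 and 451 in wild type (-2.62 ± 0.24, limma adjusted p = 7.8e-05), while its small RNA was lower by a log2 difference of -7.87. R05A10.1, of the same class, is described with the largest decreases.

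**Figure D4:**
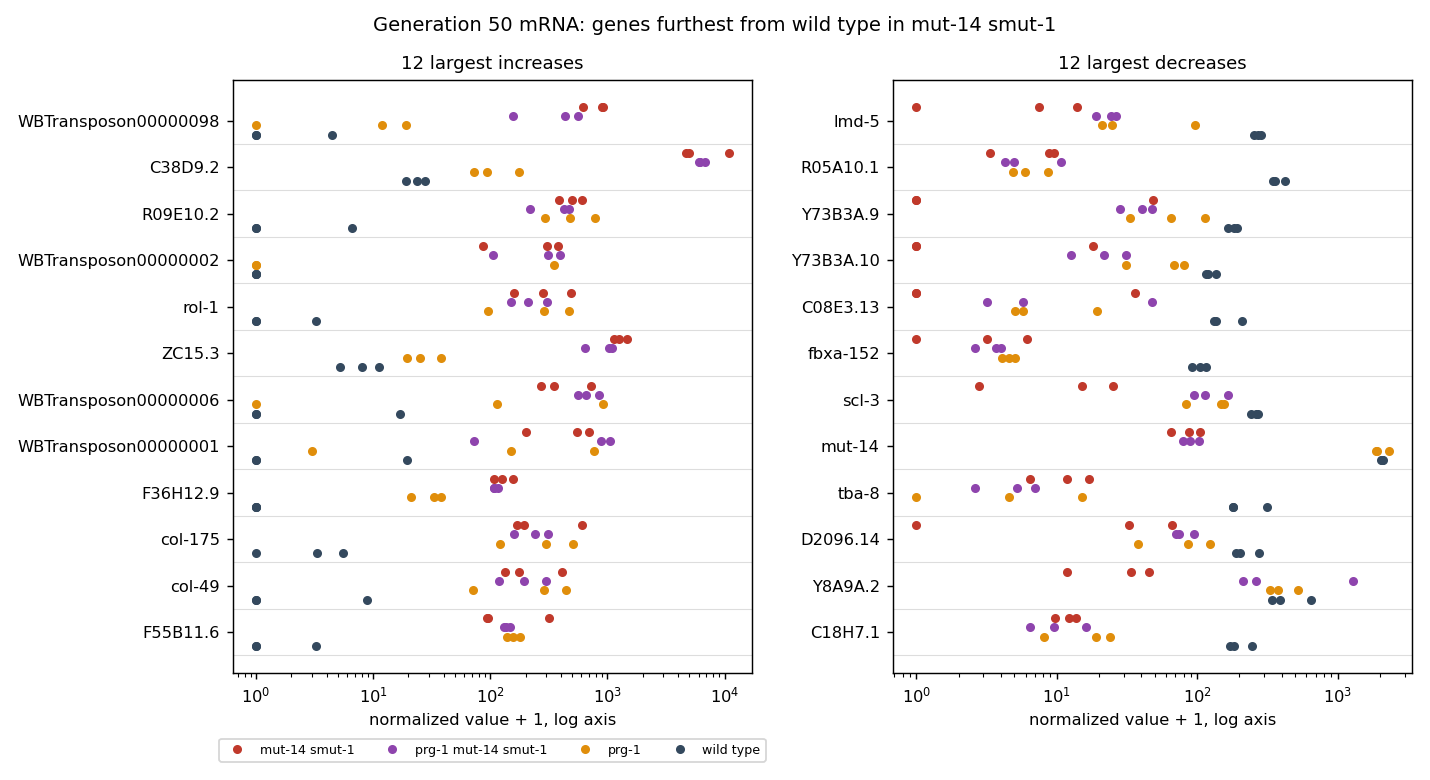
Points give the normalized mRNA value plus 1 (log axis) of each generation 50 line for the 12 largest increases and 12 largest decreases that were called, reached a mean of 100 in either group and did not overlap between mut-14 smut-1 (red) and wild type (dark). Several decreases, such as R05A10.1, fbxa-152, tba-8 and C18H7.1, are as low in the triple mutant (purple) and prg-1 (orange) as in mut-14 smut-1.

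Transposon transcripts rose in sum and in a minority of entries. Of 587 listed transposons, 83 passed the filter on low values, of which 14 rose (16.9%) and 1 fell, a share of increases near that of all genes. Summed over all 587, the values were 8703, 7355 and 14137 in mut-14 smut-1 lines, 9125, 9760 and 8486 in the triple mutant, 6269, 5993 and 8414 in prg-1 and 4386, 4632 and 4145 in wild type. Every mutant line lay above every wild-type line, and as 1 feature the sum differed from wild type by 1.14 ± 0.21 (log2; limma, adjusted p = 0.0037). Leaving out any 1 of the 6 lines kept the difference between 0.87 and 1.34, with the highest adjusted p at 0.02. Transposon copies can share reads, so single entries are uncertain. WBTransposon00000098 had 893, 918 and 622 in mut-14 smut-1 lines and 0, 3.47 and 0 in wild type, the largest fitted increase among the genes that the naming rule admits (8.92 ± 0.98). WBTransposon00000275 had 400, 609 and 320 in mut-14 smut-1 lines and 64.5, 89.2 and 112 in wild type (2.29 ± 0.32); the gene T05C3.3 was listed with the same values. In the small RNA table, 186 of 191 transposons were called lower and 0 higher.

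Genes of the small RNA machinery are read against the 11.3% lower and 16.5% higher of all genes. Of 22 mutator and amplification factors, 5 fell (22.7%) and 1 rose (4.5%), counting mut-14 and smut-1 themselves. With equal library totals, 2 fell and 1 rose. Scaffold gene mut-16 had 3448, 7229 and 4035 in mut-14 smut-1 lines and 5097, 4900 and 5318 in wild type, where line 2 lay above and the other mutant lines below all wild-type lines (limma adjusted p = 0.67). Of 22 Argonaute genes, 7 fell (31.8%) and 4 rose (18.2%), against 4 and 0 with the spread from the 2 genotypes alone. Among those lower were the microRNA Argonautes alg-1, with 319, 305 and 578 in mut-14 smut-1 lines and 1455, 890 and 1316 in wild type (-1.64 ± 0.33, limma adjusted p = 0.0056), and alg-2, with 573, 306 and 824 against 1447, 1193 and 1460 (-1.37 ± 0.28). The germline Argonaute gene wago-4 fell by 0.83 on the log2 scale. Transcript of wago-2, annotated as a pseudogene, rose, with 4843, 5440 and 4361 in mut-14 smut-1 lines and 3354, 3469 and 3584 in wild type (0.49 ± 0.12), and nuclear hrde-1 did not pass the test (limma adjusted p = 0.36). Transcript of parn-1, the nuclease that trims piRNA ends, had 1951, 1608 and 2639 in mut-14 smut-1 lines and 956, 872 and 815 in wild type (1.20 ± 0.21, limma adjusted p = 0.0035).

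The remaining lists of the silencing machinery are short, so that single calls weigh heavily in their shares (all genes: 16.5% higher and 11.3% lower). Of 18 piRNA pathway factors, 2 rose (11.1%) and 3 fell (16.7%), and of 15 germ granule components 0 rose and 3 fell (20.0%). Of 9 genes of Dicer and the ERI complex, 0 rose and 1 fell (11.1%). That gene, eri-7, had 972, 1472 and 1070 in mut-14 smut-1 lines and 1711, 1862 and 1758 in wild type, and its call was lost without mut-14 smut-1 line 1 or wild-type line 2 or 3. Of 23 nuclear RNAi and heterochromatin genes, 1 rose and 3 fell, including the Argonaute gene nrde-3 (-0.73 ± 0.16) and the histone methyltransferase gene set-25 (-0.66 ± 0.16).

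Cuticle collagens were higher in sum. Summed over 177 listed genes, they came to 537204, 473953 and 654213 in mut-14 smut-1 lines and to 230598, 214904 and 298278 in wild-type lines, a mean 2.24 times higher without overlap. Of 141 tested, 63 rose (44.7%) and 17 fell (12.1%), with a median of 0.89. The share that fell is near that of all genes, and the lower calls came to 7 without wild-type line 1, 9 without mut-14 smut-1 line 1, 10 without wild-type line 3 and 11 with the spread from the 2 genotypes alone. Transcript of col-142 had 4406, 4812 and 7555 in mut-14 smut-1 lines and 381, 413 and 448 in wild type (3.71 ± 0.37, limma adjusted p = 0.00013). At low levels the contrast was steeper: col-88 had 162, 65.2 and 262 in mut-14 smut-1 lines, against 1.40, 0 and 1.13 in wild type, and rol-1 had 157, 279 and 492 against 0, 0 and 2.26.

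Among the collagens that fell, transcript of col-10 had 565, 779 and 1393 in mut-14 smut-1 lines, 589, 528 and 459 in the triple mutant, 712, 858 and 336 in prg-1 and 6087, 3855 and 4811 in wild type (-2.51 ± 0.37, limma adjusted p = 0.0013). Transcript of col-3 had 327, 201 and 926 against 2548, 1825 and 2890 in wild type (-2.59 ± 0.54), and col-117 was listed with the same values, and col-166 fell by 2.94 on the log2 scale. Between mut-14 smut-1 and prg-1 directly, 2 collagens were higher and 2 lower of 141, where 3.07% and 3.97% of all genes were called.

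Detoxification genes were often called higher. Of 171 tested detoxification genes, 60 rose (35.1%) and 6 fell (median 0.55; 39 and 3 with the spread from the 2 genotypes alone), and the list sum was 99260, 98454 and 95890 in mut-14 smut-1 lines and 61645, 68523 and 65239 in wild type. The UDP-glucuronosyltransferase gene ugt-41 had 4647, 6875 and 3038 in mut-14 smut-1 lines and 769, 861 and 939 in wild type (2.43 ± 0.30, limma adjusted p = 0.00051). Transcript of gst-4, a glutathione S-transferase induced by oxidative stress, had 1138, 1471 and 752 in mut-14 smut-1 lines, 439, 396 and 531 in prg-1 and 272, 335 and 348 in wild type (1.77 ± 0.25), and it also differed directly from prg-1 (1.25, limma adjusted p = 0.016). Of the same list, 20 genes were higher and 2 lower than in prg-1 (11.7% and 1.2%).

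Of 38 listed genes of the intracellular pathogen response, a programme induced by microsporidia and virus, 24 were tested, 14 rose (58.3%) and 0 fell (median 1.36). The count was 8 without mut-14 smut-1 line 2 or wild-type line 3, 9 without wild-type line 2, 6 with the spread from the 2 genotypes alone, and 3 of 5 with a minimum of 100 (median 0.58). Their sum was 2222, 2335 and 2855 in mut-14 smut-1 lines, 1630, 1489 and 1640 in prg-1 and 1153, 1343 and 1116 in wild type. Transcript of pals-26 had 53.3, 81.5 and 134 in mut-14 smut-1 lines and 16.8, 20.8 and 11.3 in wild type (2.33 ± 0.43, limma adjusted p = 0.0039). The lysozyme gene lys-1 had 14886, 22513 and 24010 in mut-14 smut-1 lines, 6103, 6460 and 9834 in prg-1 and 6117, 6078 and 5468 in wild type (1.77 ± 0.22). Antimicrobial peptide genes cnc-7 and nlp-27 had differences of 3.45 ± 0.45 and 2.35 ± 0.32. Of 206 lectin, lysozyme and antimicrobial genes in all, 39 (18.9%) rose and 15 (7.3%) fell, a share of increases near that of all genes (24 higher without wild-type line 3). Among those lower was clec-210, with 31.6, 21.7 and 15.9 in mut-14 smut-1 lines and 163, 198 and 234 in wild type. Of 26 heat shock genes, 5 were higher (19.2%) and 3 lower (11.5%), near the 16.5% and 11.3% of all genes. Their sum was lower in mut-14 smut-1 lines, at 199157, 212618 and 223216, than in wild-type lines, at 254754, 239707 and 269751. Transcript of hsp-70 had 512, 692 and 1155 in mut-14 smut-1 lines and 135, 232 and 224 in wild type, and hsp-90 fell by 0.48 on the log2 scale, a call lost without wild-type line 1 or 3.

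Synaptic genes were lower. Of 17 genes, 9 fell and 0 rose (52.9%, median -0.90), 1 of them the mutated unc-119. The vesicular glutamate transporter gene eat-4 had 91.5, 85.1 and 103 in mut-14 smut-1 lines, 95.5, 97.4 and 79.5 in the triple mutant, 102, 86.4 and 83.3 in prg-1 and 264, 289 and 259 in wild type. All 9 mutant lines lay far below the wild-type lines, with a difference for mut-14 smut-1 of -1.53 ± 0.19 (log2; limma, adjusted p = 0.00062). Transcript of egl-3, which encodes a proprotein convertase of neuropeptides, had 674, 668 and 1015 in mut-14 smut-1 lines and 1637, 1339 and 1799 in wild type (-1.04 ± 0.20). Summed, the list came to 7556, 7982 and 9381 in mut-14 smut-1 lines and 12868, 11329 and 11976 in wild type. Without wild-type line 1, 4 of the 17 were called lower, and without line 3, 5 were; with the spread from the 2 genotypes alone, 4 were. Of 116 neuropeptide and insulin genes, 12 were higher (10.3%) and 11 lower (9.5%), against 16.5% and 11.3% of all genes. Their median was -0.43, with 16 higher and 24 lower at an unadjusted p under 0.05 in limma. The balance varied with single lines, with 13 higher and 29 lower without mut-14 smut-1 line 3. Without wild-type line 1 there were 11 higher and 3 lower.

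The muscle and intestine markers that were called were all higher. Of 16 body wall muscle genes 4 rose and 0 fell, and of 12 intestine genes 3 rose and 0 fell. Both shares of increases lay above the 16.5% of all genes called higher, but each rests on few genes. With 11.3% of all genes lower, 0 lower calls in such short lists say little. Among those that rose, the troponin gene unc-27 had 11918, 10224 and 9821 in mut-14 smut-1 lines and 4378, 4982 and 5324 in wild type (1.12 ± 0.13). Without mut-14 smut-1 line 1, or with the spread from the 2 genotypes alone, 2 intestine genes rose and 1 fell. Both sums overlapped wild type. The muscle sum was 151218, 174685 and 173583 in mut-14 smut-1 lines and 164224, 130795 and 167926 in wild type. The intestine sum was 78581, 46146 and 89078 against 57506, 63767 and 63655. Of 78 ribosomal protein genes, 5 rose and 0 fell (median 0.02). F-box and MATH domain genes, a large and fast-evolving family, were near the shares of all genes, with 57 of 377 (15.1%) higher and 50 (13.3%) lower.

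Core histone genes are multicopy and their reads can be shared between copies. By single copy, 23 of 64 tested were called lower and 0 higher (median -0.33), for example his-54 with 211, 437 and 563 in mut-14 smut-1 lines and 2450, 2742 and 4632 in wild type. The median was 0.03 without mut-14 smut-1 line 2, with 23 called lower and 2 higher. Without line 3, 7 were called higher and 27 lower, and with the spread from the 2 genotypes alone 10 were lower. The sum over 65 genes was 542555, 406863 and 466127 in mut-14 smut-1 lines and 483998, 485938 and 498459 in wild type, a mean ratio of 0.964 with overlap. Summed by histone type, none of H2A, H2B, H3 and H4 passed the test against wild type (limma adjusted p of 0.3, 0.25, 0.6 and 0.36). Their log2 differences were -0.35 ± 0.24, 0.23 ± 0.14, -0.14 ± 0.18 and -0.19 ± 0.15. With spreads of this size the tests cannot show that the totals were unchanged. Line 2 stood apart again, with H2A at 55312, against 130205 and 108993 in the other mut-14 smut-1 lines and 114788 to 120206 in wild type. Lines of prg-1 had core histone sums of 347373, 342451 and 371570, below all 3 mut-14 smut-1 lines, and of the 4 types H2B passed the direct test (0.61 ± 0.14, limma adjusted p = 0.03), a call lost without mut-14 smut-1 line 1 or any single prg-1 line. Without mut-14 smut-1 line 2, all 4 types passed against prg-1, with limma adjusted p of 0.0086 for H2A, 0.031 for H2B, 0.027 for H3 and 0.034 for H4.

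Several large single decreases were as deep in the other mutant genotypes. R05A10.1 had 2.35, 7.82 and 8.5 in mut-14 smut-1 lines, 3.31, 9.74 and 3.93 in the triple mutant, 4.99, 7.65 and 3.85 in prg-1 and 422, 356 and 347 in wild type (-5.84 ± 0.51, limma adjusted p = 5.7e-05). The alpha-tubulin gene tba-8 had 5.44, 10.9 and 15.9 in mut-14 smut-1 lines and 313, 179 and 179 in wild type, and the F-box gene fbxa-152 had 2.18, 0 and 5.17 against 91.1, 104 and 114. Both were below 15 in every triple mutant and prg-1 line. Y8A9A.2 differed from these, with 10.9, 32.6 and 44.4 in mut-14 smut-1 lines, 263, 1294 and 210 in the triple mutant, 523, 331 and 376 in prg-1 and 387, 342 and 648 in wild type.

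Set directly against prg-1, mut-14 smut-1 had 502 genes higher and 649 lower of 16328 (3.07% and 3.97%), fewer than against wild type in either direction. This comparison shares its mut-14 smut-1 lines with the one against wild type, and its counts depend on single lines (137 to 993 higher and 213 to 1290 lower when 1 line was left out, with the lowest counts without prg-1 line 2 and the highest without mut-14 smut-1 line 3). Of the 31 major sperm protein genes and the 64 spermatogenesis genes, 0 were called in either direction by limma against prg-1, with medians of -0.27 and 0.003, and at an unadjusted p under 0.05 there were 0 and 2, both of them higher. Oocyte genes were lower than in prg-1 in 8 of 23 (34.8%), with rme-2 at -0.81 (limma adjusted p = 0.011), and csr class genes in 380 of 3622 (10.5%). The cysteine-rich secretory protein gene scl-3 had 14.2, 1.81 and 24.1 in mut-14 smut-1 lines, 94.4, 113 and 165 in the triple mutant, 146, 155 and 82.1 in prg-1 and 240, 272 and 261 in wild type. Of the class ergo, 13 of 99 genes were higher and 0 lower than in prg-1, for example K02E2.6 with 469, 625 and 328 in mut-14 smut-1 lines, 260, 296 and 235 in the triple mutant and 165, 90.4 and 124 in prg-1 (1.89, limma adjusted p = 0.0036).

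Generation 1 animals of the same genotypes were normalized in a separate table. There, 5570 of 14618 genes were called higher and 5836 lower (38.1% and 39.9%). Nothing was tested across the tables, and the values are set side by side. Of 2571 genes higher at generation 50 and tested in both tables, 2244 were also higher at generation 1 (87.3%, and 40.4% of the genes higher at generation 1). Of 1663 lower genes, 1158 were also lower (69.6%, and 19.9% of the genes lower at generation 1). Across 14586 genes, Pearson's r of the log2 differences was 0.70 and Spearman's rho 0.53, as a description over genes, which are not independent.

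The sperm and oocyte differences were present at generation 1. All 31 tested major sperm protein genes were higher there, with sums of 20798, 17663 and 18826 in mut-14 smut-1 animals and 2591, 2172 and 1820 in wild type, and all 23 oocyte genes were lower. Of 63 spermatogenesis genes, 56 were higher and 4 lower. Lower calls at generation 1 were not particular to oocyte genes: 27 of 27 genes of germline proliferation and meiosis and 89.8% of csr class genes were also lower. C38D9.2 had 4012, 3874 and 4272 in mut-14 smut-1 at generation 1 and 20.6, 19.8 and 14.7 in wild type (log2 7.72). The transposon sum was 5310, 5349 and 5127 in mut-14 smut-1 animals and 2938, 2910 and 2548 in wild type.

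At generation 1 the groups did not overlap for 80.8% of all genes tested. A further 289 genes were lower in mut-14 smut-1 at generation 50 and higher at generation 1 (17.4% of the 1663), and 54 were higher at generation 50 and lower at generation 1. All 17 collagens that fell at generation 50 were higher at generation 1, as were 62 of the 63 that rose. On the whole list, 120 of 134 collagens were higher at generation 1 (89.6%), so this is no trait of those that fell. Of the 9 synaptic genes lower at generation 50, 7 were higher at generation 1, as were 12 of 17 on the whole list (70.6%). For eat-4 the generation 1 values were 57.8, 54.5 and 54 in mut-14 smut-1 animals and 21.5, 24.5 and 28.3 in wild type (1.14 ± 0.19, limma adjusted p = 3.8e-05).

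**Figure D5:**
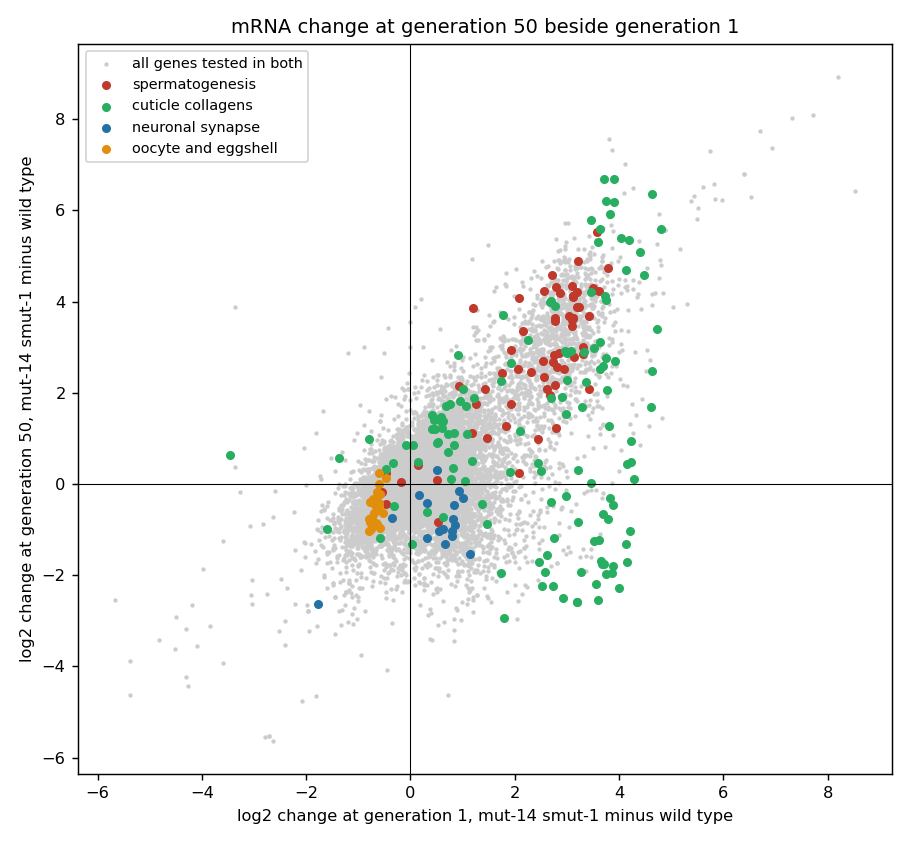
Each point is a gene tested in both tables, with its mRNA log2 difference (mut-14 smut-1 minus wild type) at generation 1 on the horizontal axis and at generation 50 on the vertical axis. Spermatogenesis genes (red) lie mostly in the upper right and oocyte genes (orange) mostly in the lower left, while collagens (green) split into an upper and a lower arm on the right and most synaptic genes (blue) lie at the lower right.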

How the data were processed

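The authors deposited 1 table per generation and RNA type, with 1 column per library. Its values have the unit signal: counts per gene that the authors had normalized. Whether these began as whole or as estimated read counts is not stated. Low mRNA values fell near multiples of 1 step per library (94.76% to 97.46% within 0.1 at generation 50), which gives approximate depths only. The sources used here do not give the aligner, counter, strand setting or genome build. The design allowed for raw counts; since the tables hold normalized values, limma 3.58.1 (R 4.3.3) was used on log2(value + 1), with a mean per genotype over all 4 genotypes of a table, a mean-variance trend and genes with at least 10 in at least 3 libraries. A fold change on this scale understates that of low genes. Calls are Benjamini-Hochberg adjusted p under 0.05 over the table. Recovered small RNA reads were also tested with edgeR 4.0.16 as an alternative. The fit was tested on simulated data. Of 23176 gene IDs at generation 50, 21555 matched a reference symbol, 158 second entries of a gene were dropped, and there were 0 columns of other samples.

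Genotypes come from the labels, which call each generation 50 sample a line; nothing says that generation 1 replicates are separate cultures, so that their p-values may measure technical spread. Named genes are the mutated genes, the 12 largest increases and decreases that were called, did not overlap and reached a mean of 100, the 3 genes with the smallest p in each direction of each list, and the strongest against prg-1 or against small RNA change; mut-16, hrde-1, alg-3, try-5, xol-1, col-117 and T05C3.3 were added after their values were seen. The members, lists and comparisons were chosen with earlier results of these data known. Alternatives were the library scaling, pseudocount, filter, a fit of 2 groups only, a line-number block and leaving out each library; summing gene families was chosen after seeing the data.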

Additional observations from a re-analysis of the deposited data

Results flagged for a closer look

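For 13 of the 161 named genes that were called, mut-14 smut-1 and wild-type samples did not overlap at either generation. Their order was opposite at generations 50 and 1, with calls at both. The generations were normalized and fitted separately, so that this difference between them was not tested, and age at harvest is stated for generation 1 alone. Opposite calls were also found over all genes tested in both, in 289 of 1663 lower and 54 of 2571 higher genes. Groups did not overlap for 41.0% of all genes tested at generation 50 and 80.8% at generation 1. The count of 13 is therefore no result about the named genes. Lower in mut-14 smut-1 at generation 50 and higher at generation 1 were the collagen genes col-10 (log2 difference -2.51 at generation 50 and 2.93 at generation 1), col-3 (-2.59 and 3.20) and col-166 (-2.94 and 1.80). Neuronal genes with that pattern were eat-4 (-1.53 and 1.14), egl-3 (-1.04 and 0.80), the neuropeptide gene flp-15 (-1.75 and 1.13) and cwp-4 (-1.54 and 1.00), along with dig-1, which encodes a large matrix protein that keeps neurons in place (-1.11 and 0.85). The others were sdz-24 (-3.45 and 0.83), ugt-57 (-2.62 and 1.09) and the small heat shock gene hsp-12.2 (-1.02 and 1.03). Higher at generation 50 and lower at generation 1 were prde-1, a factor of piRNA transcription (0.54 and -0.17), and syp-1 (0.69 and -0.36). At generation 50 the prde-1 call was lost without any 1 of 5 of the 6 lines, that of dig-1 without mut-14 smut-1 line 1 or wild-type line 1 or 3, that of syp-1 without wild-type line 2 or 3, that of cwp-4 without wild-type line 1 or 2 and that of hsp-12.2 without wild-type line 3.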

How the results depend on the processing

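Of the named genes that were called, none changed direction under any alternative, uncalled ones not being counted; the call was kept in 124 of 160 with the spread from the compared groups alone, 154 of 161 with equal library totals, 139 of 139 with a minimum of 100, 155 of 161 without a filter and 161 of 161 with a pseudocount of 10 or median-ratio scaling. Leaving out 1 library ended 2 to 28 of these calls, the most without wild-type line 3. With the spread from the compared groups alone, 1272 genes were called higher and 628 lower against wild type, and 32 and 16 against prg-1. A minimum of 100 left 1628 higher against wild type at generation 50 and 2638 at generation 1, with fewer genes tested. When 1 line was left out, counts ran from 1646 to 2897 higher and 768 to 2500 lower against wild type, from 137 to 993 higher and 213 to 1290 lower against prg-1, from 5106 to 5333 higher and 5501 to 5656 lower at generation 1, and from 3970 to 5211 higher and 2437 to 2857 lower for small RNA.

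Small RNA features called higher numbered 2818 with edgeR on recovered reads, 2858 with equal library totals, 1006 with equal miRNA totals (5399 lower), 2769 with a minimum of 100 and 9254 without a filter, and the cause was not tested. The higher share of calls was 67.0% with the deposited scaling, 43.2% with edgeR, 47.3% with equal library totals and 15.7% with equal miRNA totals. At generation 1 it was 48.8% with the deposited scaling and 61.6% with equal library totals, which moved the median log2 difference of all genes to 0.26, against 0.04.

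Line numbers repeat across genotypes, and no label says that they mark a shared batch. Deviations of same-numbered mut-14 smut-1 and wild-type lines had r of 0.108, 0.102 and -0.065, against -0.123 to 0.074 for lines of unlike number. With 3 lines per genotype these values cannot show or exclude a shared batch. With the number as a replicate block, 2569 genes were called higher and 1567 lower against wild type, 351 and 444 against prg-1, 5523 and 5788 at generation 1 and 5703 and 2831 for small RNA, and 5 of 161 named calls were lost. Count tests on the mRNA tables were not run, since whole reads could not be recovered. Depth of 15.5 to 63.8 (1e+06 reads) and 3 lines per genotype limit what low genes can show.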

Other observations

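Several genes that were low in all mutant genotypes at generation 50 were nearly absent from the whole generation 1 table, wild type included. Of the 12 largest decreases, 11 are listed at generation 1, and 6 of them stayed under 15 in all 12 generation 1 libraries, among them tba-8, at 179 to 313 in wild-type lines of generation 50 and 0 to 1.90 in wild type of generation 1, and R05A10.1, at 347 to 422 and 0 to 2.50. Of 1843 genes lower in mut-14 smut-1 at generation 50, 180 did not pass the filter on low values at generation 1, and 35 of these reached 100 in all 3 wild-type lines of generation 50. Of all 16328 genes and transposons tested at generation 50, 14586 were also tested at generation 1. Missing that filter was thus common, and the count of 180 is no result about the lower genes. The tables were normalized separately and no test was made across them.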
